A study of Mus musculus with 24 samples.

Results

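The vacuolar ATPase (V-ATPase), the cathepsins and the LAMP proteins are the proton pump, the proteases and the main membrane glycoproteins of the lysosome. Their genes were followed while mouse embryonic stem cells (mESCs) were directed towards extraembryonic endoderm (XEN) cells, the cultured counterpart of the primitive endoderm of the embryo. The 38 genes were taken by name, out of 30590 symbols in the day 1 to 4 count files: every symbol beginning with Atp6v0, Atp6v1 or Atp6ap, 11 named cathepsin genes, and Lamp1 and Lamp2. They comprised 9 genes of the membrane sector V0, 13 of the cytosolic sector V1, 3 accessory genes, 11 cathepsin genes and 2 LAMP genes. All 38 were found again by Ensembl identifier among the 43629 identifiers of the endpoint libraries. The cells were E14 mESCs of 129/Ola background, either wild type (WT) or AGO2 knock out (KO), the latter lacking a functional gene for AGO2, an effector protein of microRNA silencing. Both were grown for 5 days without LIF in medium with 15% serum, 0.1 μM retinoic acid and 10 ng/mL activin A. Poly(A) RNA was sequenced at days 1, 2, 3 and 4 in WT and in KO, with 2 libraries in each of the 8 groups. A further 6 libraries, which the labels mark as re-used, gave the endpoints, with 2 each of undifferentiated WT mESC (passages 33 and 42), WT diff_XEN and KO diff_XEN. KO mESC (2 samples) was not analysed here. The KO diff_XEN libraries carry the clone names C4 and 5-3, with 1 library per clone, and the labels name no clone for KO at days 1 to 4, so loss of AGO2 and a clone's own differences from WT cannot be told apart. No label says that the 2 libraries of a group came from separate cultures, so p-values measure the spread between these libraries, which may be technical.

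The V-ATPase couples ATP hydrolysis in the V1 sector to proton transport through the V0 sector, and the acid it makes lets cathepsins digest endocytosed and autophagic protein. Many lysosomal genes carry a promoter element with the core TCACGTGA that is bound by the MiT/TFE transcription factors (Tfeb, Tfe3, Tfec and Mitf). Extraembryonic endoderm takes up maternal protein and degrades it in large endocytic and lysosomal compartments, and parietal endoderm lays down a basement membrane.

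Libraries held 10601574 to 27147835 assigned counts at days 1 to 4 and 13941826 to 40139219 at the endpoints. Ago2 was lower in each KO library than in each WT library of the same day (-2.11 ± 0.15 on the log2 scale averaged over days, adjusted p = 6.36e-07), and in diff_XEN it did not pass the test (-2.72 ± 1.04, adjusted p = 0.0808). There the WT libraries held 389 and 427 counts scaled to library size (CPM). The KO clones were unequal, at 115 CPM in C4 and 9.35 in 5-3, both below WT. All 6 primitive endoderm and XEN markers (Gata4, Gata6, Sox17, Sox7, Dab2 and Pdgfra) rose in both genotypes. Their summed level went from 69.6 to 79.8 CPM at WT day 1 to 1450.2 to 1511 CPM at WT day 4, and in KO from 14.4 to 20.6 CPM at day 1 to 298 to 300.3 CPM at day 4. These are bulk libraries, in which fewer cells of a type and less RNA per cell cannot be told apart.

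Promoters of 7 genes of the group are shown because they carry CACGTG, and because most genes of the group rose together in WT. CACGTG is the middle of TCACGTGA, the core given above for the MiT/TFE factors, and is the more frequent of these palindromes. Windows without CACGTG, such as those of Ctsz, Ctsc and Atp6v0a1, are not printed. RefSeq promoter windows (GRCm38.p6, from 250 bases before to 50 after a transcript start) were matched by symbol for 29 of the 38 genes. Both strands were searched, which for a palindrome gives 1 site per match, and every TCACGTGA also counts as a CACGTG. TCACGTGA occurred in 5 of the 29 genes (Ctsa, Ctsd, Atp6v0d1, Atp6v1a and Atp6v0e), against 304 of 27025 genes (1.12%) and 320 of 32851 promoter windows (0.974%) in the same table. CACGTG occurred in 9 of the 29, the others being Lamp1, Atp6v0b, Ctsl and Ctsf, against 2187 of 27025 genes (8.09%) and 2349 of 32851 windows (7.15%). Neither was found in these windows of Ctsz, Ctsc, Atp6v0a1, Atp6ap2 or Lamp2, which says only that the letters are not there. The Atp6v0a1 window begins at chr11:101010148, inside the gene as annotated in GENCODE M21 (from 101009452), so its annotated 5′ end was not searched. The stretches printed below for Ctsa, Ctsd, Ctsl, Atp6v0e and Atp6v1a also lie inside the annotated genes. Ctsh and Ctsb had no window. Stretches of 100 bases are printed 5′ to 3′ on the gene's strand, with CACGTG in capitals, for 7 genes on which the results below turn: Lamp1 with 4 copies at chr8:13159091-13159190 (+ strand), Ctsa with 2 at chr2:164833703-164833802 (+), Ctsd with 1 of its 2 at chr7:142387873-142387972 (− strand), Ctsl at chr13:64370671-64370770 (−), Atp6v0d1 at chr8:105566035-105566134 (−), Atp6v0e at chr17:26676326-26676425 (+) and Atp6v1a at chr16:44139338-44139437 (−). The capitals begin 61, 45, 28 and 15 bases before the Lamp1 start, 98 before that of Ctsd, 236 before that of Ctsl, 131 before that of Atp6v1a, 3 before that of Atp6v0d1, 12 before and 6 after the start of Ctsa, and 4 after that of Atp6v0e.
Lamp1: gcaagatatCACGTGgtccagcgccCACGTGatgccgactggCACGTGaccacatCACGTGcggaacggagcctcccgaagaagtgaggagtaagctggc
Ctsa: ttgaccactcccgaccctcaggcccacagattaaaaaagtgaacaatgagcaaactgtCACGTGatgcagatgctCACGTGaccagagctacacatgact
Ctsd: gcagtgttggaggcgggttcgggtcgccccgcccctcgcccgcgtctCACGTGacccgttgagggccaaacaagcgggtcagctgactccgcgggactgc
Ctsl: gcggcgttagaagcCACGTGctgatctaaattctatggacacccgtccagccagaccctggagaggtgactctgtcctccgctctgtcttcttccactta
Atp6v0d1: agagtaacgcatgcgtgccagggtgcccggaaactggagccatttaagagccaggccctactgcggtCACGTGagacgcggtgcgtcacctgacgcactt
Atp6v0e: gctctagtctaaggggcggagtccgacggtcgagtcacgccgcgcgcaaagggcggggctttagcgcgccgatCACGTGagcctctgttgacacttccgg
Atp6v1a: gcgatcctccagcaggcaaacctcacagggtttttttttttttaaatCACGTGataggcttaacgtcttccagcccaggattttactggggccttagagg

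Of the 38 genes, 32 passed the filter on low counts in both sets of libraries. The other 6 were tissue-restricted or minor forms: the V0 subunit Atp6v0d2, known from osteoclasts and macrophages, the kidney-type V1 subunits Atp6v1b1 and Atp6v1g3, the testis-type subunit Atp6v1e2, the accessory paralogue Atp6ap1l and Ctss, a cathepsin of antigen-presenting cells. Their highest counts in any library of days 1 to 4 were 1 for Atp6v0d2, 2 for Atp6v1b1, 3 for Atp6v1g3, 1 for Atp6v1e2, 5 for Atp6ap1l and 10 for Ctss. Atp6v0d2, Atp6v1b1 and Atp6v1g3 had 0 counts over the 6 endpoint libraries, which allows up to 0.0149 CPM (3 counts of the summed total, for counting error only).

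Several members overlap other annotated genes in GENCODE M21, among them Ctsl and Ctsd on the same strand (Gm49230 and Gm49369) and Ctsz (Nelfcd), Ctsb (Fdft1), Ctsa (Neurl2 and Pltp), Lamp1 (Grtp1) and Atp6v1h (Rgs20), and whether the counting used strand is not given in the sources used here, so reads of such pairs cannot be told apart.

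At WT day 1 the order of levels per length, in CPM per kilobase of exon sequence, was led by Ctsd, the aspartic protease cathepsin D, at 88.7 ± 2.95 (SD, n = 2 libraries), and Lamp1 at 84.8 ± 1.10, although with the longest transcript as the length their order was the reverse. At WT day 4 Ctsl, Ctsd and Lamp1 stood at 240 ± 66.2, 230.0 ± 35.9 and 211 ± 27.0 CPM per kilobase, with libraries that overlapped, and by the longest transcript Ctsd came first. Ctsl had ranked 10 of 38 at WT day 1. In WT diff_XEN Ctsl was first at 877 ± 170.2 CPM per kilobase, ahead of Lamp1 at 687 ± 45.9, and their libraries overlapped when the longest transcript was taken as the length. In KO diff_XEN Ctsd led at 837 ± 158 CPM per kilobase and Ctsl was at 95.5 ± 22.8.

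In the WT course the group rose broadly. Of the 32 tested genes 23 were higher at day 4 than at day 1, 0 were lower and 9 did not pass the test (edgeR's quasi-likelihood test, Benjamini-Hochberg adjusted p below 0.05), while 26.9% of all 17694 tested genes were higher and 21.6% lower. None of the 32 was lower at an unadjusted p below 0.05 in edgeR or called lower by DESeq2. The median log2 fold change was 0.89 for the 32 and 0.01 for all genes. By role, the genes that rose were 6 of 8 in V0, 5 of 10 in V1, 2 of 2 accessory genes, 8 of 10 cathepsins and 2 of 2 LAMP genes. In 12 of the 32, both libraries of each day lay above both of the day before at all 3 steps, a pattern seen in 5.01% of all genes, and the falling pattern, seen in 2.97% of all genes, in 0 of 32. The 12 were Atp6v0a1, Atp6v0e, Atp6ap1, Atp6ap2, Ctsa, Ctsb, Ctsc, Ctsh, Ctsl, Ctsz, Lamp1 and Lamp2.

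**Figure D1:**
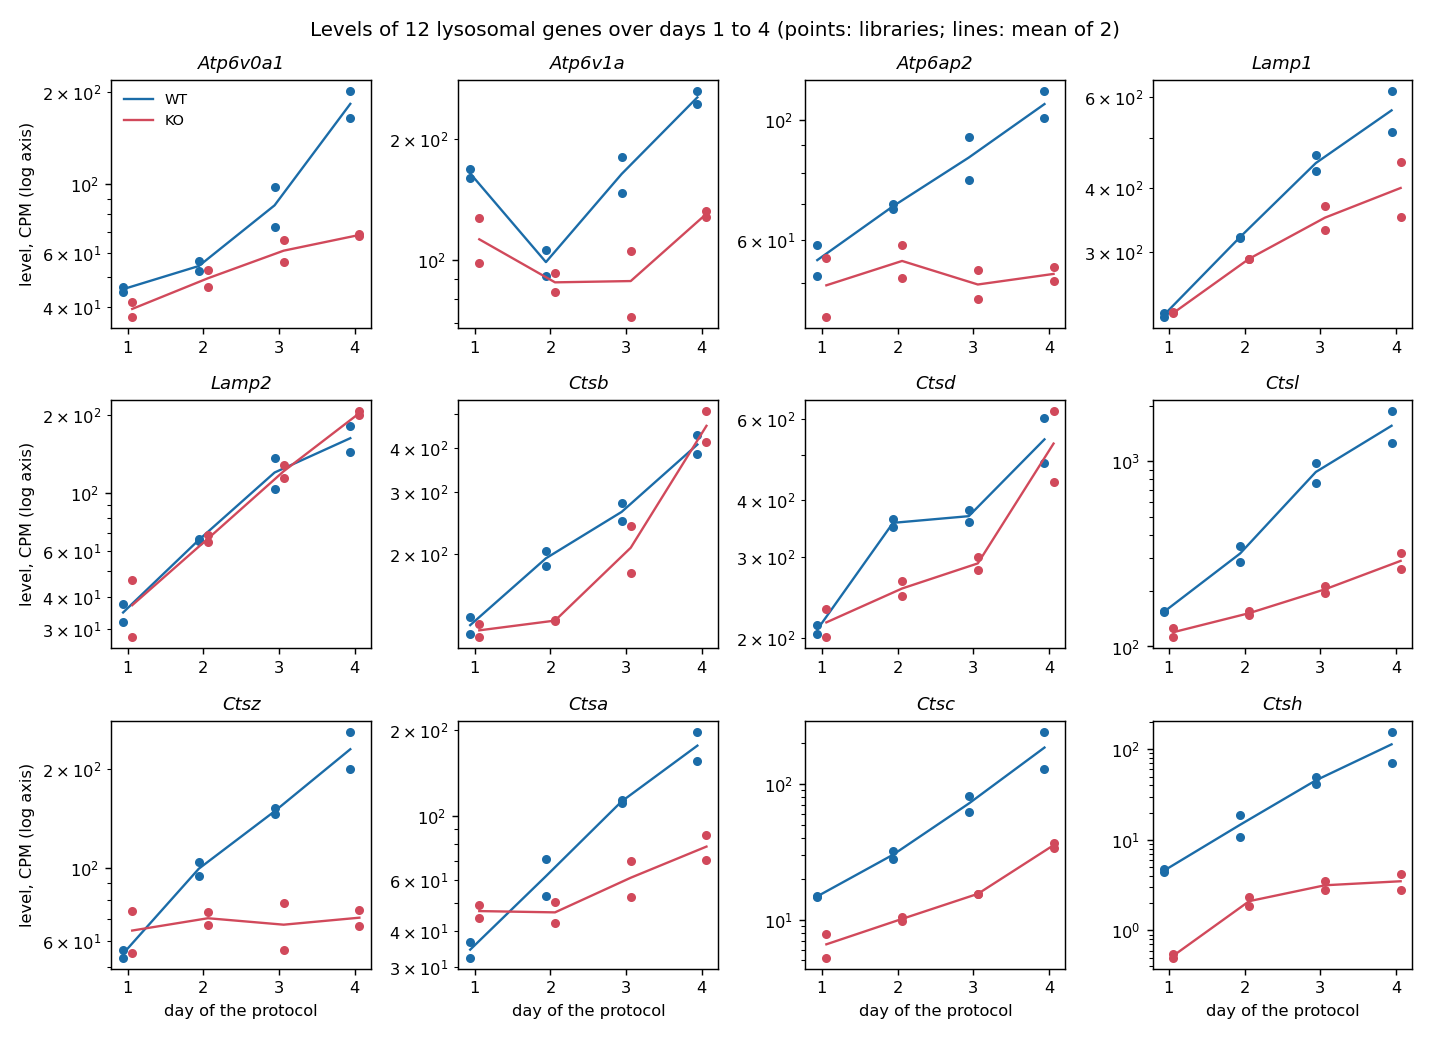
Levels of 12 of the genes by day, in CPM on a log axis with its own scale in each panel; points are libraries and lines join the group means of WT and KO. In the WT libraries Ctsl climbs from 154 and 155 to 1859 and 1252 CPM.

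Among the V0 genes of the WT course, Atp6v0a1, one of the isoforms of the large membrane subunit a that line the proton path, rose most. Its libraries held 44.9 and 46.6 CPM at day 1, 56.5 and 52.2 at day 2, 98.3 and 72.8 at day 3 and 201 and 164 at day 4. Each day was above the one before from day 1 on, and the change was 2.00 ± 0.17 (log2 ± SE, 2 libraries a day, adjusted p = 7.99e-07). Atp6v0c, the proteolipid that builds the rotating ring, went from 31.2 and 32.1 CPM at day 1 through 33.3 and 35.4 and 43.8 and 55.5 to 62.7 and 53.4 at day 4. Days 1 and 4 did not overlap (0.88 ± 0.19, adjusted p = 0.00181), although near-identical processed copies of this gene make its counts uncertain. Its ring partner Atp6v0b (0.95 ± 0.20) and the small subunit Atp6v0e (0.75 ± 0.15) rose by similar amounts. Atp6v0d1, which ties the ring to the central stalk, and Atp6v0a2, a Golgi and endosomal a isoform, rose by 0.51 ± 0.16 and 0.67 ± 0.21. Atp6v0e2 (-0.01 ± 0.21) and the kidney-type isoform Atp6v0a4 (-0.66 ± 0.57, 1.96 and 2.4 CPM at day 1 and 1.80 and 1.00 at day 4) did not pass the test.

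The V1 genes had a median log2 change of 0.48 in WT, beside 0.71 in V0, 1.99 among cathepsins and 1.77 for the LAMP pair. Atp6v1a encodes the catalytic subunit A, and its WT levels were 160.0 and 168 CPM on day 1, 106 and 91.6 at day 2, 146 and 181 at day 3 and 262 and 244 at day 4. It dipped at day 2 below both neighbouring days and ended above day 1 without overlap (0.63 ± 0.18, adjusted p = 0.0105). The peripheral stalk gene Atp6v1g1 rose by 0.90 ± 0.18, the rotor gene Atp6v1d by 0.52 ± 0.15, the other stalk gene Atp6v1e1 by 0.43 ± 0.17 and the nucleotide-binding subunit B gene Atp6v1b2 by 0.31 ± 0.11. Atp6v1c1 (0.05 ± 0.16), a subunit that reversibly joins the sectors, the regulatory subunit gene Atp6v1h (0.14 ± 0.22), the rotor gene Atp6v1f (-0.14 ± 0.18) and the low forms Atp6v1c2 (1.03 ± 0.52) and Atp6v1g2 (0.81 ± 0.46) did not pass. Both accessory genes rose: Atp6ap1, a factor of pump assembly, by 1.72 ± 0.14, and Atp6ap2, the (pro)renin receptor. The Atp6ap2 libraries held 58.7 and 51.5 CPM at WT day 1, 70.0 and 68.7 at day 2, 77.5 and 93.1 at day 3 and 113 and 101 at day 4, without overlap between any neighbouring days (0.96 ± 0.16, adjusted p = 0.000187). The calls of Atp6v0a2, Atp6v0d1, Atp6v1a, Atp6v1b2, Atp6v1d and Atp6v1e1 were all lost without WT day 4 replicate 1, and some of them without each of WT day 1 replicates 1 and 2 and day 4 replicate 2, with log2 changes from 0.25 to 0.84 over these fits. The other 17 calls held in every alternative run. Atp6v1b2 and Atp6v1e1 were each called in only 1 of the 9 alternative runs. Both also lost the call with DESeq2 size factors, with no filter and with the replicate number as a block. Atp6v1d also lost its call with no filter.

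Cathepsins made the largest WT rises. Ctsh, an aminopeptidase of the lysosome, went from 4.45 and 4.75 CPM at day 1 to 10.8 and 18.6 at day 2, 41.3 and 49.5 at day 3 and 156 and 71.0 at day 4 (4.62 ± 0.37, adjusted p = 7.12e-07). Ctsc, the dipeptidyl peptidase that activates serine proteases of immune granules, went from 14.8 and 14.9 CPM through 28.0 and 32.1 and 81.0 and 62.3 to 242 and 129 (3.64 ± 0.27, adjusted p = 3.34e-07). In both genes the 2 day 4 libraries were unequal, replicate 1 being the higher, and both lay above day 3. Ctsl, a broad endopeptidase, held 154 and 155 CPM at day 1, 286 and 349.5 at day 2, 768 and 983 at day 3 and 1859 and 1252 at day 4. Every library was above all those of earlier days (3.33 ± 0.21, adjusted p = 9.56e-08).

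Ctsa, the carboxypeptidase that also shields the sialidase Neu1, rose from 36.5 and 32.3 to 196 and 155 CPM in WT (2.35 ± 0.19, adjusted p = 7.67e-07). Ctsz, a carboxypeptidase, held 53.4 and 56.4 CPM at day 1, 94.6 and 104 at day 2, 152 and 145 at day 3 and 259 and 199.6 at day 4, again with no overlap from day to day (2.06 ± 0.19, adjusted p = 1.74e-06). The cysteine protease gene Ctsb held 132 and 118, 184 and 204, 279 and 247 and 436 and 384 CPM at days 1, 2, 3 and 4. Its days did not overlap either (1.71 ± 0.17, adjusted p = 2.98e-06). Ctsd held 213 and 204, 348 and 363, 379 and 357 and 600.5 and 481 CPM, with days 2 and 3 overlapping and days 1 and 4 apart (1.37 ± 0.17, adjusted p = 2.02e-05). Ctso, a low cysteine protease gene, rose from 2.24 and 1.56 to 8.53 and 5.94 CPM (1.92 ± 0.28), most of it by day 2 (8.36 and 7.63 CPM). Ctsf (0.28 ± 0.22) and Ctsk, the collagen-degrading protease of osteoclasts (-0.22 ± 0.67, at or below 2.04 CPM in every library of the course), did not pass.

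Both LAMP genes rose in WT. Lamp1 held 229 and 225 CPM at day 1, 322 and 320.2 at day 2, 431 and 462 at day 3 and 617 and 515 at day 4, with each day above the one before (1.32 ± 0.15, adjusted p = 8.06e-06). Lamp2, which has an isoform that takes up substrates of chaperone-mediated autophagy, held 37.5 and 32, 65.6 and 66.6, 103 and 137 and 182 and 144 CPM in the same order of days. It was the larger rise of the pair, again without overlap (2.23 ± 0.21, adjusted p = 2.79e-06). Markers of macrophages, cells with a rich lysosomal system, were low. The 8 listed genes summed to 1.35 to 2.08 CPM at WT day 1 and to 4.04 to 4.87 CPM at day 4. Most of that rise was Csf1r, from 0.401 and 0.379 to 2.42 and 2.72 CPM. Of the 3 that were tested, 1, Csf1r, was called higher (2.70 ± 0.46). Fcer1g went from 0.320 and 0.168 CPM at day 1 to 0.0898 and 0.215 at day 4. Ptprc, the leukocyte marker, was at 0 in both WT libraries of days 2 and 3. The 6 fibroblast and mesenchyme markers rose together from a sum of 4.93 to 5.22 CPM at WT day 1 to 752 to 1530.1 CPM at day 4, and all 8 parietal and 7 of 8 visceral endoderm markers rose as well. The 6 pluripotency markers fell from a sum of 1548 to 1965 CPM at WT day 1 to 202 to 367 CPM at day 4, 5 of 6 being called. At WT day 3 the 2 libraries were apart, at 386 and 991 CPM. The part of these cell types in the lysosomal rises was not tested.

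In the KO course the group split. Of the same 32 genes 15 were higher at day 4 than at day 1, 5 were lower and 12 did not pass, while 33.3% of all genes were higher and 32.9% lower. The median was 0.27, against -0.02 over all genes. Cathepsins (7 of 10) and both LAMP genes rose, whereas in V0 3 rose and 1 fell and in V1 2 rose and 4 fell, and 1 of 2 accessory genes rose. Day-by-day rises without overlap were seen in 8 of 32 (Atp6v0a1, Atp6ap1, Ctsb, Ctsc, Ctsd, Ctsl, Ctso and Lamp2), where 8.73% of all genes showed them, and falls in 0 of 32, where 6.23% did.

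Ctsb in KO held 116 and 126, 129 and 129, 176 and 239.8 and 510.0 and 418 CPM at days 1 to 4 (1.94 ± 0.17, adjusted p = 5.47e-07). Lamp2 held 46.2 and 28.0, 64.9 and 68.8, 114 and 128 and 199.9 and 206 CPM (2.45 ± 0.22, adjusted p = 6.08e-07). At day 4 Ctsb overlapped WT, and Lamp2 lay above both WT libraries without passing the test between genotypes. Ctso rose from 1.78 and 1.20 to 11.6 and 14.1 CPM (3.10 ± 0.28, adjusted p = 8.36e-07), and Ctsd held 201 and 231, 266 and 247, 281 and 300.1 and 622 and 437 CPM (1.29 ± 0.17, adjusted p = 1.61e-05). Ctsc (2.42 ± 0.27) and Ctsh (2.73 ± 0.48) rose too, yet from and to low levels. Ctsc went from 7.89 and 5.25 to 36.9 and 33.8 CPM and Ctsh from 0.503 and 0.553 to 2.78 and 4.21 CPM, and both KO day 4 libraries of Ctsh were below both WT day 1 libraries. Lamp1 in KO held 228 and 229, 292 and 291, 331 and 369 and 448 and 352 CPM (0.81 ± 0.14, adjusted p = 0.000225).

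Among V-ATPase genes of the KO course, Atp6v0a1 (0.80 ± 0.16), Atp6v0a2 (0.90 ± 0.21), Atp6v0e2 (0.73 ± 0.21) and Atp6ap1 (1.07 ± 0.14) rose, as did the low forms Atp6v1c2 (1.43 ± 0.53) and Atp6v1g2 (1.18 ± 0.43). Of the main V1 genes, Atp6v1f fell most, from 79.2 and 123 CPM at day 1 to 47.0 and 45.7 at day 4 (-1.13 ± 0.19, adjusted p = 0.000118). Its day 1 libraries were unequal, replicate 2 being the higher. Smaller falls were those of Atp6v1d, from 62.6 and 65.2 to 46.5 and 41.1 CPM (-0.54 ± 0.15), Atp6v1c1, from 98.1 and 87.8 to 66.4 and 65.6 CPM (-0.49 ± 0.16), and Atp6v1b2, from 195 and 207 to 157 and 158 CPM (-0.35 ± 0.11). The scarce V0 transcript Atp6v0a4 fell too, from 1.97 and 0.368 to 0.30 and 0.247 CPM (-2.11 ± 0.74). Atp6v1a held 127 and 98.4, 83.2 and 93.0, 72.4 and 105 and 133 and 128 CPM at KO days 1 to 4, with the lowest levels in the middle of the course (0.21 ± 0.18, adjusted p = 0.317, not called). Atp6v0c held 34.5 and 45.2, 30.4 and 33.1, 29.1 and 37.4 and 48.7 and 36.7 CPM, with days 1 and 4 overlapping (0.10 ± 0.19, adjusted p = 0.659). The calls of Atp6v0a4 (-2.83 to -0.50 over the left-out libraries), Atp6v0e2 (0.39 to 0.93), Atp6v1c2 (1.14 to 1.61), Atp6v1g2 (0.70 to 1.71) and Ctsa (0.55 to 0.83) were lost without 1 or more of the 4 KO libraries, Ctsa only without day 4 replicate 1, and that of Atp6v1b2 in a fit of the 4 libraries alone.

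The genotypes differed in how far 11 of the 32 genes changed from day 1 to day 4, and in each of the 11 the change was lower in KO than in WT. Over all genes 3.83% had a lower and 2.59% a higher change in KO. No gene of the group had a higher change by edgeR, 2 had one at an unadjusted p below 0.05 and DESeq2 called 1. The median of the differences was -0.66, against -0.02 for all genes. The 11 comprised 4 of 8 V0 genes, 3 of 10 V1 genes, 1 of 2 accessory genes, 3 of 10 cathepsins and neither LAMP gene.

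**Figure D2:**
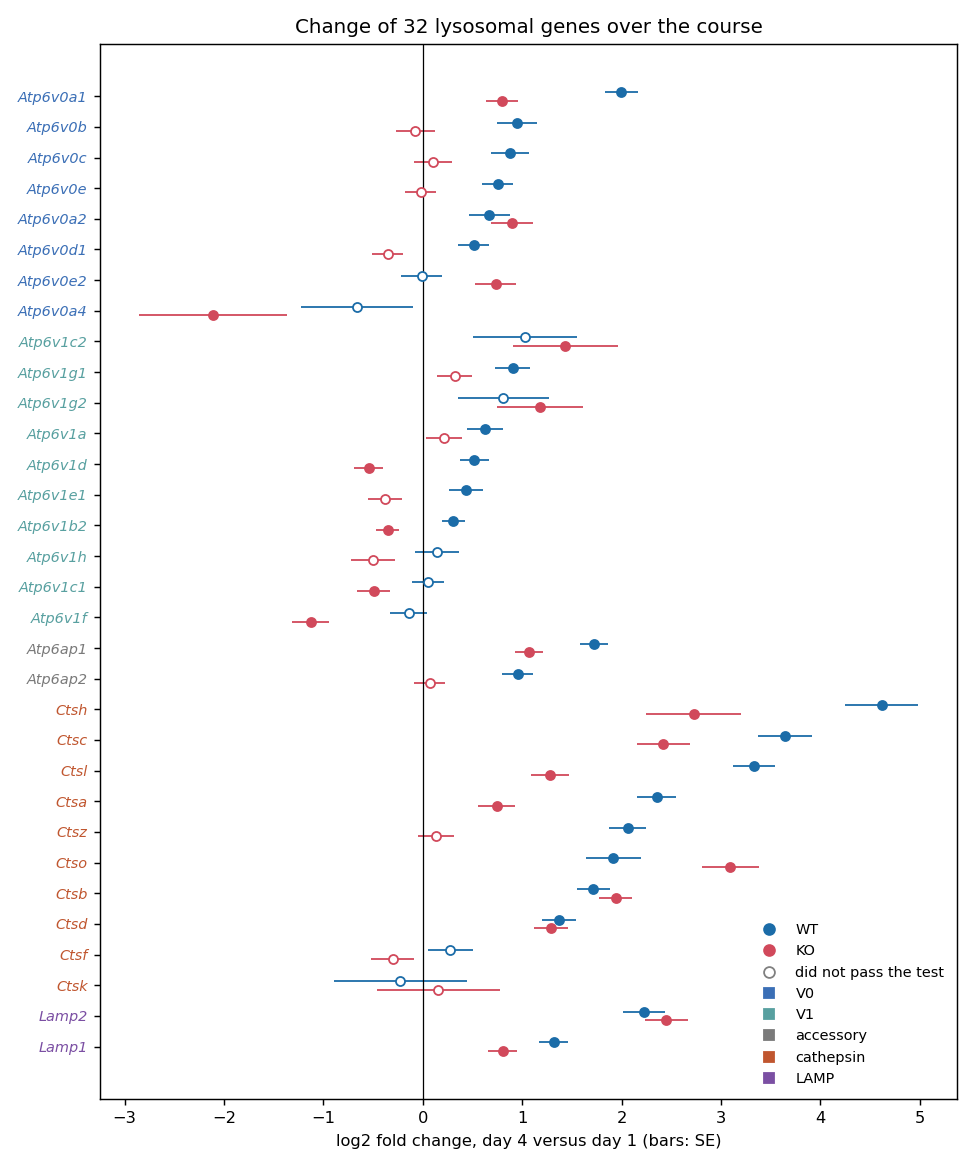
Log2 fold change from day 1 to day 4 in WT and KO for the 32 tested genes, with bars of 1 SE; open symbols did not pass the test. Ctsz lies at 2.06 in WT and 0.13 in KO, whereas Ctsb and Lamp2 lie close together in both.

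Ctsl showed the largest difference, its rise being 3.33 ± 0.21 in WT and 1.28 ± 0.19 in KO. KO libraries held 112 and 127, 155 and 148, 212 and 195 and 319 and 261 CPM at days 1 to 4, so its day 4 level in KO was below that of WT day 3 (-2.05 ± 0.27, adjusted p = 0.000939). Ctsz held 55.1 and 73.9, 73.4 and 67.2, 78.1 and 56.3 and 74.6 and 66.6 CPM in KO, with days 1 and 4 overlapping. Its difference between genotypes was -1.93 ± 0.26 (adjusted p = 0.00103). Ctsa went from 44.4 and 49.2 to 86.2 and 70.6 CPM in KO (-1.61 ± 0.26, adjusted p = 0.00438), and Atp6v0a1 from 41.7 and 37.3 to 69.2 and 67.9 (-1.20 ± 0.23, adjusted p = 0.0104). These 4 calls, of 11, held in every alternative run. Atp6ap2 held 55.7 and 43.3, 58.7 and 51.2, 52.8 and 46.6 and 50.5 and 53.5 CPM in KO, a flat course beside the WT rise (-0.89 ± 0.22, adjusted p = 0.0323).

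The other 6 differences were those of Atp6v1d (-1.06 ± 0.21), Atp6v0b (-1.02 ± 0.28), Atp6v1f (-0.98 ± 0.26), Atp6v0d1 (-0.87 ± 0.22), Atp6v0e (-0.78 ± 0.22) and Atp6v1b2 (-0.66 ± 0.16). Atp6v1f differed through its KO fall and did not pass in WT. Those of Ctsc (-1.22 ± 0.36, adjusted p = 0.0556) and Ctsh (-1.89 ± 0.63, adjusted p = 0.0785) did not pass edgeR's test, but both were called by DESeq2, which called 15 of the 32 genes lower, and with no filter. Ctsb (0.23 ± 0.23), Ctsd (-0.08 ± 0.24), Lamp2 (0.23 ± 0.29), Lamp1 (-0.51 ± 0.20), Atp6v0c (-0.78 ± 0.27) and Atp6v1a (-0.42 ± 0.25) did not pass either, nor did Ctso (1.18 ± 0.39, adjusted p = 0.0776), whose difference was positive. Of the 29 genes of the group with a promoter window, called or not, 5 held TCACGTGA and 9 CACGTG, against 1.12% and 8.09% of all genes with one. Among the 10 called genes with a window, 3 held TCACGTGA (Ctsa, Atp6v0d1 and Atp6v0e), 5 held CACGTG and 5 held neither. A link of these letters to the calls was not tested. The number of calls was 5 and 4 without WT day 1 replicates 1 and 2, 4 and 7 without WT day 4 replicates 1 and 2, 16 and 6 without KO day 1 replicates 1 and 2, 6 and 5 without KO day 4 replicates 1 and 2, 6 in a fit of the 8 libraries alone and 8 with the replicate number as a block. With single libraries left out, the differences of the 7 genes that lost calls stayed negative, from -1.36 to -0.54.

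Averaged over the 4 days, KO cells held less of 13 of the 32 genes and more of none, while 10.0% of all genes were lower and 7.52% higher. None was higher at an unadjusted p below 0.05 or called so by DESeq2. The 13 were 3 of 8 V0 genes, 3 of 10 V1 genes, 1 of 2 accessory genes, 5 of 10 cathepsins and 1 of 2 LAMP genes. The median log2 fold change was -0.21, against -0.01 over all genes. Ctsh was lowest (-3.68 ± 0.20, adjusted p = 2.72e-08), followed by Ctsc (-1.84 ± 0.13), Ctsl (-1.49 ± 0.10), the low V0 gene Atp6v0a4 (-1.45 ± 0.32), Ctsz (-0.78 ± 0.09) and Ctsa (-0.50 ± 0.09). In Ctsh and Ctsc each KO library lay below each WT library of its day. Of the pump genes, Atp6v1a (-0.64 ± 0.09), Atp6ap2 (-0.58 ± 0.08), Atp6v0a1 (-0.56 ± 0.08), Atp6v1c1 (-0.44 ± 0.08), Atp6v0b (-0.36 ± 0.10) and Atp6v1d (-0.24 ± 0.07) were lower, as was Lamp1 (-0.25 ± 0.07). The calls of Atp6v0b, Atp6v1d and Lamp1 were lost without 7, 14 and 12 of the 16 libraries left out in turn, with values from -0.43 to -0.18, and the other 10 calls held throughout. Of the 13 genes 11 had a promoter window, of which 2 held TCACGTGA, 5 held CACGTG and 6 held neither.

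**Figure D3:**
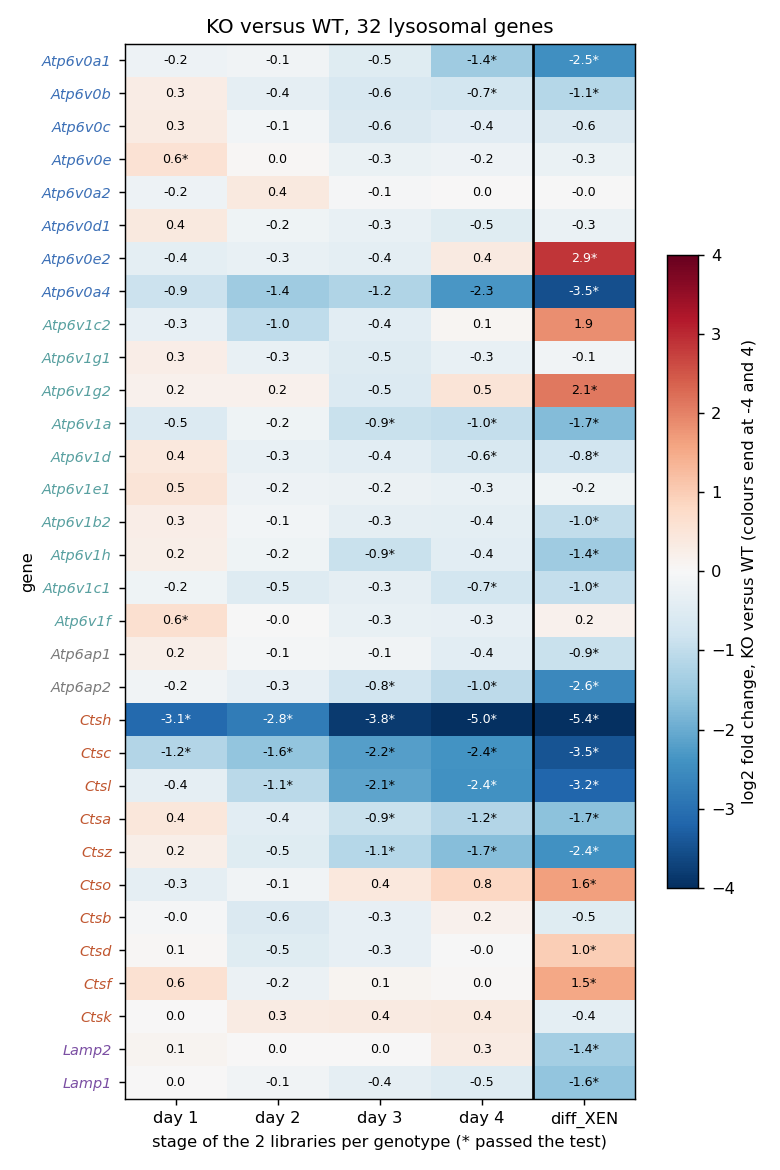
Log2 fold change of KO against WT in each tested gene at days 1, 2, 3 and 4 and in diff_XEN, by colour with the scale ending at -4 and 4; asterisks mark values that passed the test. Ctsh and Ctsc carry an asterisk in every column.

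By day, the number of genes lower in KO was 2 at day 1, 3 at day 2, 8 at day 3 and 11 at day 4, while the shares of all genes that were lower were 6.71%, 0.853%, 3.0% and 5.05%. Higher in KO were 2 at day 1 (6.89% of all genes) and 0 at days 2, 3 and 4 (0.774%, 1.83% and 1.99%). At an unadjusted p below 0.05 edgeR had 0, 0 and 1 higher at those 3 days, and DESeq2 called 0, 0 and 1. The medians over the 32 were 0.07, -0.22, -0.41 and -0.42 at days 1, 2, 3 and 4. At day 1 Ctsh (-3.11 ± 0.45, adjusted p = 0.00308) and Ctsc (-1.17 ± 0.26, adjusted p = 0.0194) were already lower, while Atp6v1f (0.64 ± 0.18, 66.1 and 63.6 CPM in WT) and Atp6v0e (0.58 ± 0.15, 46.7 and 43.3 CPM in WT and 58.3 and 76.7 in KO) were higher. All 4 day 1 calls were lost without KO replicate 2, 3 of them without either WT library, and 12 genes were called without KO replicate 1. At day 2 Ctsl joined the lower genes (-1.07 ± 0.19, adjusted p = 0.0112), though its call and that of Ctsc were lost without WT replicate 2 or either KO library (-1.21 to -0.91 for Ctsl, -1.67 to -1.46 for Ctsc).

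At day 3 the lower genes were Ctsh (-3.82 ± 0.37), Ctsc (-2.21 ± 0.26), Ctsl (-2.11 ± 0.20), Ctsz (-1.14 ± 0.18), Ctsa (-0.88 ± 0.19), Atp6v1a (-0.89 ± 0.18), Atp6v1h (-0.89 ± 0.22) and Atp6ap2 (-0.78 ± 0.16). The call of Atp6v1h rested on WT replicate 2, at 136 CPM against 75.0 in replicate 1, and without it the value was -0.37. Those of Ctsa, Atp6ap2 and Atp6v1a were also lost without it (-0.67, -0.61 and -0.62), and some of these 4 without KO replicate 1 or 2. A fit of the 4 day 3 libraries alone called 3 genes (Ctsh, Ctsc and Ctsl). At day 4 Ctsh was -5.01 ± 0.39 (adjusted p = 2.37e-06), Ctsl -2.42 ± 0.20 (adjusted p = 3.73e-06), Ctsc -2.39 ± 0.26, Ctsz -1.70 ± 0.19, Atp6v0a1 -1.41 ± 0.16, Ctsa -1.17 ± 0.19, Atp6ap2 -1.04 ± 0.16 and Atp6v1a -0.96 ± 0.18. These 8 calls held in every alternative run. Those of Atp6v1c1 (-0.73 ± 0.16), Atp6v0b (-0.72 ± 0.20) and Atp6v1d (-0.64 ± 0.15) were lost without any 1 of the 4 day 4 libraries (-0.82 to -0.52). Ctsd (-0.03 ± 0.17, adjusted p = 0.95), Ctsb (0.18 ± 0.16) and Lamp2 (0.32 ± 0.20) did not pass edgeR's test at any day, but at day 2 Ctsb, at 184 and 204 CPM in WT and 129 and 129 in KO (-0.59 ± 0.16), was called by DESeq2, with no filter and in a fit of the 4 day 2 libraries alone, and Ctsd (-0.47 ± 0.17) in the last of these. With 2 SE on either side, these 3 differences at day 4 lie within 1 log2 unit of 0.

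Endoderm markers were lower in the same KO libraries. Averaged over days, 6 of 6 primitive endoderm and XEN markers, 6 of 8 visceral endoderm markers and 5 of 8 parietal endoderm markers were lower in KO (edgeR). At day 4 the visceral endoderm markers (Afp, Ttr, Apoa1, Apob, Cubn, Amn, Hnf4a and Rhox5) summed to 2565 to 2704 CPM in WT and to 108 to 124 CPM in KO, and the parietal endoderm markers to 10598 to 11905 and 3741 to 5014 CPM. Most of the visceral endoderm sum in WT was Cubn, at 2011 and 2138 CPM, with 15.0 and 36.1 in KO. The fibroblast and mesenchyme markers summed to 752 to 1530.1 CPM in WT and 972 to 1323 in KO, with overlap. Pluripotency markers summed to 202 to 367 CPM in WT and 81.2 to 174 CPM in KO at day 4, after 2166 to 2265 CPM at KO day 1, and the 2 KO libraries of day 3 were apart at 198 and 729 CPM. The macrophage marker Csf1r was lower in KO averaged over days (adjusted p = 0.0234, edgeR), with 2.42 and 2.72 CPM at WT day 4 and 0.976 and 0.866 at KO day 4. Other macrophage markers did not all follow, as Cd14 held 0.815 and 0.694 CPM at WT day 2 and 1.45 and 1.52 at KO day 2. The 8 listed macrophage markers summed to 1.53 to 2.12 CPM in WT and 2.77 to 2.83 in KO at day 2. At day 4 the sums were 4.04 to 4.87 CPM in WT and 2.85 to 3.22 in KO. The part of these cell types in the lower cathepsin and pump transcripts of KO was not tested.

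In diff_XEN the genotypes differed in most of the group. Of 32 genes 17 were lower in KO, 5 were higher and 10 did not pass, while 24.9% of the 16671 genes tested there were lower and 22.1% higher. The median was -0.83, against -0.02 over all genes. The lower genes were 3 of 8 V0 genes, 5 of 10 V1 genes, 2 of 2 accessory genes, 5 of 10 cathepsins and 2 of 2 LAMP genes, and the higher ones 1 V0 gene, 1 V1 gene and 3 cathepsins.

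**Figure D4:**
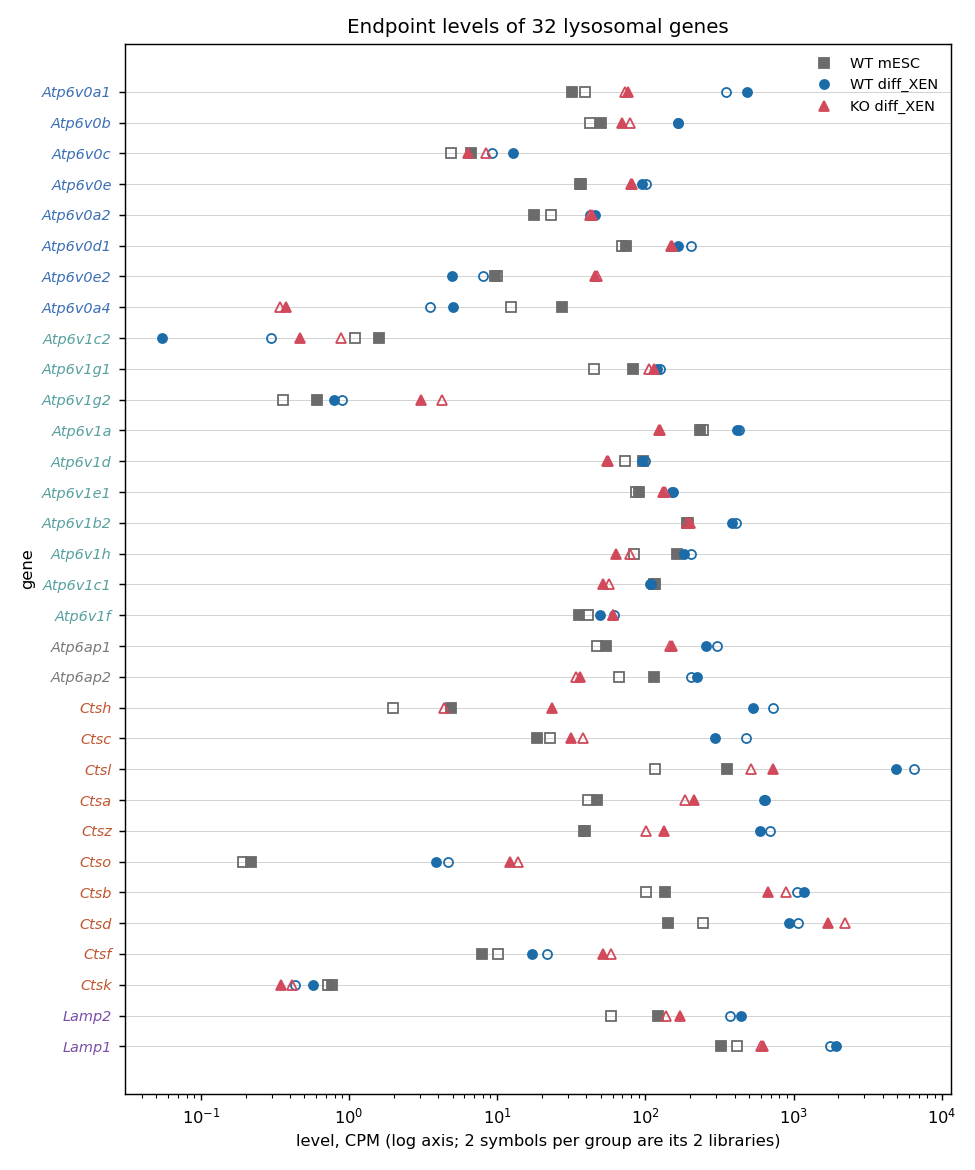
Levels of the genes in WT mESC, WT diff_XEN and KO diff_XEN, in CPM on a log axis, with each of the 2 libraries per group as a point. Ctsl lies at 6475 and 4913 CPM in WT diff_XEN and at 515 and 724 in KO diff_XEN, and Ctsd is higher in KO.

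Ctsh held 731 and 534 CPM in the WT diff_XEN libraries, 4.37 in clone C4 and 23.5 in clone 5-3. The genotypes were far apart and the clones were unequal (-5.43 ± 0.85, adjusted p = 0.00618, and -7.16 to -4.67 with single libraries left out), and the call was lost without the filter on low counts. Ctsl held 6475 and 4913 CPM in WT and 515 and 724 in KO clones C4 and 5-3 (-3.17 ± 0.30, adjusted p = 0.00257). Ctsc held 481 and 297 CPM in WT and 37.9 and 31.6 in KO (-3.46 ± 0.29, adjusted p = 0.00244), and Ctsz 698 and 590.4 and 102 and 133 (-2.43 ± 0.23, adjusted p = 0.00257). In none of these did a KO library reach a WT library. Ctsa was lower as well (-1.65 ± 0.18). Ctsb held 1051 and 1168 CPM in WT and 885 and 669.8 in KO, without overlap but without passing (-0.49 ± 0.20, adjusted p = 0.0953).

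Ctsd went the other way, with 1068 and 934 CPM in WT and 2229 and 1705 in KO (1.00 ± 0.21, adjusted p = 0.0144), and the call went without WT library B or clone C4 (0.84 to 1.17 over the left-out libraries). Ctso (1.63 ± 0.26) and Ctsf (1.54 ± 0.20) were higher too, from 4.68 and 3.85 to 13.9 and 12.2 CPM and from 21.6 and 17.2 to 58.8 and 52.1 CPM. Lamp1 held 1750.0 and 1924 CPM in WT and 599 and 618 in KO (-1.57 ± 0.18, adjusted p = 0.00329). Lamp2 held 373 and 443 CPM in WT and 139 and 170.5 in KO (-1.37 ± 0.20, adjusted p = 0.00537). Both were lower in KO here without overlap.

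Among the pump genes of diff_XEN, Atp6ap2 held 205 and 224 CPM in WT and 34.2 and 36.4 in KO (-2.57 ± 0.17, adjusted p = 0.00224), below its WT mESC level of 66.9 and 114. Atp6v0a1 held 352 and 487 CPM in WT and 73.1 and 76.3 in KO (-2.46 ± 0.22, adjusted p = 0.00246). Atp6v1a held 428 and 415 CPM in WT and 125 and 123 in KO (-1.74 ± 0.16, adjusted p = 0.00246). The low gene Atp6v0a4, at 3.52 and 5.00 CPM in WT and 0.342 and 0.376 in KO (-3.51 ± 0.45), Atp6v1h (-1.41 ± 0.18), Atp6v0b (-1.14 ± 0.15), Atp6v1b2 (-0.98 ± 0.16), Atp6v1c1 (-0.97 ± 0.15), Atp6ap1 (-0.88 ± 0.17) and Atp6v1d (-0.78 ± 0.15) were lower as well. Higher were Atp6v0e2, at 7.98 and 4.92 CPM in WT and 47.0 and 45.9 in KO (2.87 ± 0.29, adjusted p = 0.00279), and the brain-type stalk gene Atp6v1g2, at 0.893 and 0.793 and 4.24 and 3.04 CPM (2.12 ± 0.41). Atp6v0c held 9.25 and 12.8 CPM in WT and 8.34 and 6.37 in KO and did not pass (-0.56 ± 0.29, adjusted p = 0.16).

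The calls of Atp6v1g2 (1.92 to 2.34), Atp6ap1 (-0.96 to -0.78), Atp6v1d (-0.81 to -0.72), Atp6v1b2 (-1.03 to -0.91) and Atp6v1c1 (-0.99 to -0.91) were also lost without 1 or both KO clones or, for Atp6v1g2, WT library B, and 15 of the 22 calls held in every alternative run. In these libraries 6 of 6 primitive endoderm and XEN markers, 6 of 8 parietal and 6 of 8 visceral endoderm markers were lower in KO. Visceral endoderm markers summed to 8791 to 9114 CPM in WT and 129 to 159 in KO, most of the WT sum being Cubn (8127 and 8230 CPM). Fibroblast and mesenchyme markers summed to 311 to 709 CPM in WT and 2319 to 3705 in KO, 3 of 6 being higher and 2 lower. Pluripotency markers summed to 262 to 278 CPM in WT and 46.6 to 49.6 in KO, with 5 of 6 lower. The macrophage markers summed to 11.2 to 14.9 CPM in WT and 3.21 to 6.37 in KO, with Adgre1 at 0 in WT and Ptprc and Adgre1 at 0 in KO. Csf1r made up most of the WT sum, at 13.5 and 9.95 CPM, with 1.57 and 4.98 in KO. Cd14 held 0.893 and 0.738 CPM in WT and 1.16 and 0.955 in KO. The part of these cell types in the result was not tested.

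Over the whole WT protocol, from mESC to diff_XEN, 22 of 32 genes were higher, 2 lower and 8 not called, while 27.2% of 17936 genes were higher and 25.3% lower. The median was 1.18, and -0.00 over all genes. The genes that rose were 5 of 8 V0 genes, 4 of 10 V1 genes, 2 of 2 accessory genes, 9 of 10 cathepsins and 2 of 2 LAMP genes. WT mESC libraries held 1.99 and 4.85 CPM of Ctsh (7.53 ± 0.91, adjusted p = 0.000739) and 116 and 358 of Ctsl (4.59 ± 0.57, adjusted p = 0.000789). The 2 mESC libraries were unequal for both genes, replicate 2 being the higher. Ctsz (38.5 and 39.1 CPM in mESC, 4.05 ± 0.26), Ctso (0.192 and 0.219 CPM, 4.35 ± 0.41), Ctsc (22.7 and 18.4 CPM, 4.24 ± 0.32) and Ctsa (3.85 ± 0.23) followed.

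Ctsb in WT mESC held 101 and 136 CPM (3.23 ± 0.28, adjusted p = 0.000212), Ctsd 244 and 143 (2.37 ± 0.32, adjusted p = 0.00112), Lamp1 416 and 326 (2.31 ± 0.24) and Lamp2 58.4 and 122 (2.18 ± 0.36). Every one of these was below both WT diff_XEN libraries. Ctsf also rose (1.11 ± 0.26). Of the pump genes, Atp6v0a1 rose most (3.56 ± 0.26, adjusted p = 0.000134), followed by Atp6ap1 (2.45 ± 0.22), Atp6v0b (1.84 ± 0.21), Atp6v0e (1.43 ± 0.20), Atp6v0d1 (1.36 ± 0.21) and Atp6ap2 (1.25 ± 0.28). Atp6v0a2 (1.11 ± 0.23), Atp6v1b2 (1.04 ± 0.20), Atp6v1g1 (0.94 ± 0.30), Atp6v1a (from 243 and 235 CPM, 0.82 ± 0.19, adjusted p = 0.0104) and Atp6v1e1 (0.78 ± 0.19) rose by less. Atp6v0c went from 4.87 and 6.61 to 9.25 and 12.8 CPM without passing edgeR's test (0.94 ± 0.35, adjusted p = 0.0555), and DESeq2 called it. Atp6v0a4 fell from 12.3 and 27.2 to 3.52 and 5.00 CPM (-2.21 ± 0.45, adjusted p = 0.00567), as did the low gene Atp6v1c2 (-2.90 ± 0.81). The calls of Atp6v1g1 (0.59 to 1.46), Atp6v1c2 (-4.47 to -2.13) and Ctsf (0.93 to 1.33) were lost without WT diff_XEN library A or B or, for Atp6v1c2, mESC replicate 2, and the other 21 held. Primitive endoderm and XEN markers rose over the same span from sums of 33.1 to 111 CPM to 3172 to 4196 CPM, macrophage markers went from 0.288 to 0.576 CPM to 11.2 to 14.9 CPM with 2 of 3 tested called higher, and all 6 pluripotency markers fell. Most of the macrophage sum in WT diff_XEN was Csf1r, at 13.5 and 9.95 CPM. The part of these cell types in the result was not tested.

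The make-up of the a subunit family shifted with the protocol and differed between genotypes. As a share of the summed level per length of Atp6v0a1, Atp6v0a2, Atp6v0a4 and Tcirg1 (the a3 isoform, known from osteoclasts), Atp6v0a1 made up 41.2% ± 2.84 (SD, n = 2) at WT day 1, 30.4% ± 3.03 at day 2, 43.5% ± 3.24 at day 3 and 55.2% ± 5.18 at day 4. In KO it was 37.5% ± 0.76 at day 1, 27.5% ± 0.14 at day 2, 30.6% ± 1.81 at day 3 and 28.7% ± 0.31 at day 4. The libraries of the genotypes did not overlap on any day, with the gap widest at day 4. Tcirg1 made up 34.6% ± 5.29 at WT day 4 and 57.9% ± 1.64 at KO day 4, and its own transcript rose in both genotypes (1.41 ± 0.25 in WT and 1.56 ± 0.25 in KO). In WT mESC Atp6v0a1 was at 39.5% ± 7.12 and Atp6v0a4 at 28.5% ± 14, with the latter uneven between passages. In WT diff_XEN Atp6v0a1 reached 78.8% ± 4.75 and Tcirg1 12% ± 3.85, and in KO diff_XEN they were at 26.3% ± 0.36 and 58.7% ± 0.38. Tcirg1 was higher in KO than in WT diff_XEN (1.45 ± 0.18, adjusted p = 0.00384), opposite to Atp6v0a1.

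**Figure D5:**
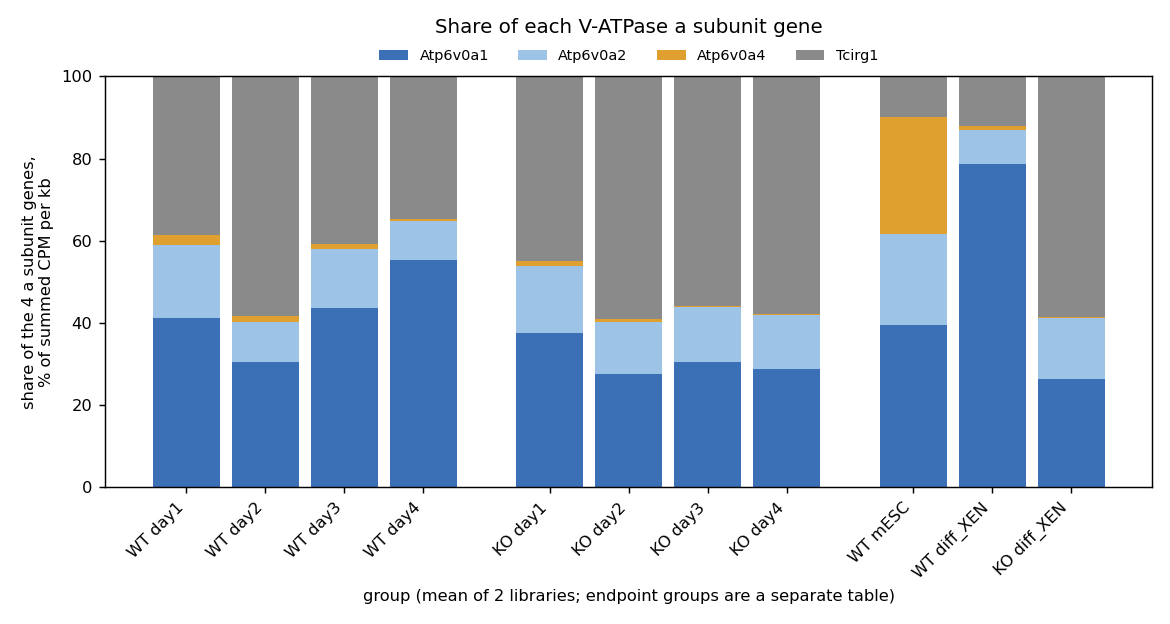
Shares of Atp6v0a1, Atp6v0a2, Atp6v0a4 and Tcirg1 in their summed level per kilobase of exon sequence, as stacked bars of group means in percent. Atp6v0a1 fills 78.8% of the bar of WT diff_XEN and 26.3% of that of KO diff_XEN.

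The e subunit pair also shifted. Atp6v0e2, the minor e form, made up 33.8% ± 1.08 of the pair's level per length at WT day 1 and 23.1% ± 0.34 at day 4, and 20.8% ± 0.59 and 30.4% ± 3.15 in KO. At the endpoints it was at 29.6% ± 0.66 in WT mESC, 9.22% ± 2.4 in WT diff_XEN and 47.3% ± 0.10 in KO diff_XEN. In the d, B, C, E and G families the forms Atp6v0d1, Atp6v1b2, Atp6v1c1, Atp6v1e1 and Atp6v1g1 made up at least 93.1% of the mean level in every group.

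Other genes of the lysosome were taken from a list of 65, of which 64 were tested. In the WT course 39 rose and 1 fell (26.9% and 21.6% of all genes), and in the KO course 37 rose and 12 fell (33.3% and 32.9%). The change was lower in KO for 10 (3.83% of all genes) and higher for 2 (2.59%), and averaged over days 15 were lower (10.0%) and 4 higher (7.52%) in KO, the shares higher in KO being near those of all genes. The medians were 0.77, 0.66, -0.22 and -0.15 in that order, beside those of all genes given above. In diff_XEN 36 were lower in KO and 8 higher (24.9% and 22.1% of all genes), and from WT mESC to WT diff_XEN 47 rose and 2 fell (27.2% and 25.3%). Lgmn, the asparaginyl protease legumain, which processes several cathepsins including Ctsl, went from 71.6 and 66.0 to 772 and 650.5 CPM in WT and from 48.6 and 45.9 to 132 and 126 in KO. Its difference in change was -1.92 ± 0.22 (adjusted p = 0.000434), near that of Ctsl. Neu1, the sialidase that needs Ctsa, went from 19.1 and 19.1 to 101 and 80.1 CPM in WT and from 18.9 and 19.4 to 38.8 and 34.0 in KO (-1.32 ± 0.21, adjusted p = 0.00334). Averaged over days Psap, the precursor of the saposins that help degrade sphingolipids (0.61 ± 0.09), the sorting receptor gene Sort1 (0.40 ± 0.09), the membrane protein Laptm4a (0.30 ± 0.08) and the acid phosphatase gene Acp2 (0.26 ± 0.08) were higher in KO, while Lgmn (-1.48 ± 0.08), Neu1 (-0.68 ± 0.07) and the ganglioside activator gene Gm2a (-0.52 ± 0.08) were lower.

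Among the other list genes, the tripeptidyl peptidase gene Tpp1 rose in WT beside Lgmn and Neu1 (1.70 ± 0.14). In KO the heparan sulfate enzymes Naglu (2.17 ± 0.20) and Sgsh (2.01 ± 0.19) and Sort1 (2.03 ± 0.19) rose. Acp5, a phosphatase best known from osteoclasts, was the only list gene called lower in WT (-2.44 ± 0.25), and it fell in KO as well (-3.30 ± 0.26), along with Ccdc115 (-1.54 ± 0.23), a V-ATPase assembly factor, Nagpa (-1.28 ± 0.20) and Tmem192 (-0.97 ± 0.19). The change was also lower in KO for the cathepsin inhibitor gene Cst3 (-1.53 ± 0.31) and Tmem192 (-1.24 ± 0.26), and higher for Sort1 (1.04 ± 0.26) and Laptm4b (0.76 ± 0.18). At day 1 Igf2r, a mannose 6-phosphate receptor (-1.26 ± 0.24), Dmxl2 (-1.28 ± 0.34) and Laptm4b (-0.48 ± 0.12) were lower in KO, and the assembly factor Tmem199 (0.63 ± 0.18) and Tmem192 (0.59 ± 0.18) were higher.

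At the endpoints, 19 of the 32 listed hydrolases and activators were lower in KO diff_XEN and 2 higher (24.9% and 22.1% of all genes). From WT mESC to WT diff_XEN 29 of the 32 rose (27.2% of all genes). The list genes lower in KO included Gnptab, which makes the mannose 6-phosphate tag of lysosomal enzymes (-3.08 ± 0.21), Lgmn (-3.56 ± 0.28) and Galns (-1.92 ± 0.16). Those higher in KO included Laptm4b (2.05 ± 0.16), Laptm4a (1.68 ± 0.17), Sort1 (2.16 ± 0.25) and Tcirg1. From WT mESC to WT diff_XEN, Lgmn (5.23 ± 0.33), Galns (4.37 ± 0.27), the hexosaminidase gene Hexa (3.60 ± 0.22) and the membrane protein gene Cd63 (3.38 ± 0.21) were among those that rose, and Laptm4b (-0.86 ± 0.20) and Tfeb (-1.12 ± 0.39) fell.

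Of the MiT/TFE genes, Tfec, a member expressed in few tissues, was scarce in KO throughout. In WT it stood at 1.24 and 1.64 CPM on day 1, 3.20 and 3.98 at day 2, 13.4 and 20.1 at day 3 and 30.7 and 25.1 at day 4, and none of the KO libraries of days 1 to 4 exceeded 0.557 CPM. At day 1 it had 70 counts in WT and 1 in KO, a depth-adjusted ratio of 68.3 (95% interval 11.9 to 2738, counting error only), and at day 4 the log2 fold change was -6.09 ± 0.48 (adjusted p = 2.28e-06). In diff_XEN the WT libraries were uneven, at 63.4 and 11.1 CPM, against 0.0684 and 0.550 in KO. Tfe3 rose in WT (0.80 ± 0.14) and in KO (0.50 ± 0.14) and did not pass between genotypes averaged over days (0.08 ± 0.07, adjusted p = 0.438). Tfeb did not pass in the WT course (-0.35 ± 0.26), fell in the KO course (-1.07 ± 0.26, adjusted p = 0.00218) and was higher in KO diff_XEN (0.91 ± 0.26, adjusted p = 0.0351). Mitf was lower in KO averaged over days (-0.43 ± 0.14, adjusted p = 0.0425) and in diff_XEN (-2.64 ± 0.70, adjusted p = 0.0287).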

How the data were processed

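Poly(A) RNA of 16 WT and KO libraries of days 1 to 4 and of 6 endpoint libraries was analysed from gene counts that the authors deposited, which are whole numbers of reads per gene with no normalization. Per the submitters' processing notes, the tools were STAR 2.5.0c and featureCounts 1.4.5-p1, with the build mm10; the annotation release and the counting strand are not given in the sources used here. A table of the whole series held 3 columns used in no step. Day 1 to 4 files list symbols and endpoint files list Ensembl identifiers, of which 42462 of 43629 matched a symbol in GENCODE M21 (GRCm38). The 2 sets were fitted apart and their levels were not compared.

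Genes were kept by edgeR's filterByExpr by group, scaled by TMM and tested with edgeR 4.0.16 (R 4.3.3) quasi-likelihood fits of group means over all 16 libraries of days 1 to 4, the 4 diff_XEN libraries (KO against WT) or all 6 endpoint libraries (WT diff_XEN against mESC), in 10 comparisons, with Benjamini-Hochberg adjustment over all genes tested and a threshold of 0.05. Errors of fold changes are SEs, the absolute log2 fold change over the square root of F. CPM use TMM-scaled library sizes, and levels per length divide them by the union of a gene's exons. The code was tested on simulated data. Python 3.11.15 with pandas 2.3.3 and numpy 2.4.6 gave the summaries, and DESeq2 1.42.0 the other test. Libraries held 10601574 to 40139219 counts, and, averaged over genes, replicate libraries differed by more than the sampling noise of their counts.

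Alternatives were DESeq2's size factors, no filter, the DESeq2 Wald test, a block for the replicate number, a fit restricted to the compared libraries, each library left out in turn, and transcript length in place of exon length. Same-numbered libraries of days 1 to 4 deviated from their group means with correlations of -0.18 to 0.39, so the numbers were not taken to pair the samples. The named genes were every member at least once, 9 members with every library in the comparisons, up to 5 called members per comparison and direction with the largest change and a mean of at least 1 CPM, all members called in KO against WT averaged over days, and up to 4 called genes of the lysosome list with the smallest p. One gene that this rule would name is not reported here. The members and the lists were chosen with earlier results of these data known.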

Additional observations from a re-analysis of the deposited data

Results flagged for a closer look

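KO and WT differed in the change from day 1 to day 4 in 11 of the 32 tested genes of the V-ATPase, cathepsin and LAMP group. This was by edgeR's test of the difference itself, with 2 libraries per group. All 11 differences were negative (KO minus WT, log2). Over all 17694 tested genes, 3.83% had a lower and 2.59% a higher change in KO. Among the cathepsins, that of the endopeptidase gene Ctsl was -2.05, that of the carboxypeptidase gene Ctsz -1.93 and that of Ctsa -1.61. In the V0 sector of the pump, Atp6v0a1 differed by -1.20, Atp6v0b by -1.02, Atp6v0d1 by -0.87 and Atp6v0e by -0.78. In the V1 sector, Atp6v1d differed by -1.06, Atp6v1f by -0.98 and Atp6v1b2 by -0.66. The (pro)renin receptor gene Atp6ap2 differed by -0.89. Ctsl, Ctsz, Ctsa and Atp6v0a1 kept the call in every alternative run, and the other 7 lost it without 1 or more libraries.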

How the results depend on the processing

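In a tally of part of the results over the alternatives, 1279 values kept direction and side of the threshold, 79 lost the call, 14 gained it and 24 changed sign. The tally does not hold every member call, and more calls of members were lost or gained than it counts. Of the member calls, 17 of 23 held in every alternative for WT day 4 against day 1, 14 of 20 for KO, 4 of 11 for the difference of these changes, 10 of 13 for KO against WT averaged over days, 0 of 4, 1 of 3, 3 of 8 and 8 of 11 at days 1, 2, 3 and 4, 15 of 22 in diff_XEN and 21 of 24 for WT diff_XEN against mESC. The cause of these changes was not tested. For the difference of the day 1 to 4 changes, 11 members were called, 6 with only those libraries fitted and 4 to 16 with a library left out; over all genes 1136 were called, 2707 with no filter, 2185 by the DESeq2 Wald test and 222 to 3133 with a library left out. At day 1, 4 members were called, 9 by the Wald test and 0 to 12 with a library left out; over all genes 2406, 3754 with no filter and 45 to 4225. At day 2, 3 members were called, 5 with no filter, 8 alone and 1 to 3 with a library left out; over all genes 288, 1094 with no filter, 590 by Wald, 1440 alone and 49 to 105. At day 3, 8 members were called, 3 alone and 4 to 10 with a library left out; over all genes 854, 2035 with no filter, 1341 by Wald, 35 alone and 271 to 2643. At day 4, over all genes 1246 were called, 2119 with no filter and 443 to 835 with a library left out, and in diff_XEN 7835 and 4180 to 6952. With a library left out, the member calls ranged from 17 to 20 in the WT course, 17 to 20 in KO, 10 to 14 averaged over days, 8 to 8 at day 4, 17 to 22 in diff_XEN and 22 to 24 for WT diff_XEN against mESC. With the replicate number as a block, 21 members were called in the WT course, 20 in KO, 8 for the difference, 13 averaged over days and 4, 3, 8 and 10 at days 1, 2, 3 and 4; the endpoint columns carry no numbers shared between groups, so no paired fit could be made there. Values that changed sign were all uncalled. With single libraries left out, for KO day 4 against day 1 Atp6v0c ranged from -0.16 to 0.31, Atp6ap2 from -0.10 to 0.19 (-0.0043 with no filter) and Ctsz from -0.14 to 0.36. For the difference of changes, Ctsd ranged from -0.37 to 0.13 and Lamp2 from -0.067 to 0.60. At day 1 Atp6ap2 ranged from -0.29 to 0.032, Ctsb from -0.10 to 0.075, Ctsd from -0.038 to 0.21 and Lamp2 from -0.25 to 0.43. Lamp2 ranged from -0.020 to 0.052 at day 2 and from -0.17 to 0.26 at day 3 (-0.0099 alone). Ctsd at day 4 ranged from -0.28 to 0.22 (0.0091 with DESeq2 size factors and 0.0090 by the Wald test). With the longest transcript as length, the Atp6v0a1 share moved from 28.7% to 30.1% at KO day 4 and from 26.3% to 27.8% in KO diff_XEN. Averaged over genes, a replicate pair's squared count differences were 12.6 to 149 times those of sampling noise (chi-square per degree of freedom). Abundant genes weigh most in this average. With 2 libraries per group, it therefore does not tell whether depth limited the precision of scarce members. Ctsh, for example, had 13 and 12 counts at KO day 1.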
